A study of Mus musculus with 17 samples.

Results

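The genes of the extracellular matrix and of the proteases that cut it were read across sorted brain myeloid cells of mice. They were taken from the table by symbol: collagens, laminins, nidogen, fibronectin, versican, the ADAM, ADAMTS and ADAMTS-like families, matrix metalloproteinases (MMPs) and their tissue inhibitors (TIMPs). The rule uses names and no measured value, and it found 54 of the 13769 genes listed. They are 11 collagens, 5 laminins and nidogen, fibronectin with versican, 11 ADAMs, 6 ADAMTS proteases, 3 ADAMTS-like proteins, 12 MMPs and 3 TIMPs. The remaining gene, Col4a3bp, matches by its symbol but encodes a ceramide transfer protein and no matrix protein.

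The 17 RNA-seq libraries fall into 4 groups of C57bl6/j brain cells. Transplanted µ (3 libraries) and transplanted TAµ (3) are the 2 fractions sorted from BU-treated mice 3 months after GFP Lin- transplantation. Adult control µ (3) came from mice aged 5 months, and P10 TAµ (8) from mice at postnatal day 10. The labels leave µ, TAµ and BU without explanation, do not say whether the sorted cells carried GFP, and give no sample of adult untreated TAµ. The transplanted mice are adults per the design text, so transplanted TAµ differ from their P10 control in age as well as in treatment. In that comparison 25 of 26 proliferation genes were lower in transplanted TAµ. The 2 controls differ in age and in fraction. Transplanted µ differ from adult control µ in BU treatment and in transplantation, and no group has BU treatment alone or transplantation alone. In none of these cases can the factors be told apart. As a check of the cell type, all 13 of 13 microglial marker genes were measured, and none was at the floor in any group (lowest group level 5.87 on the log2 scale). In transplanted TAµ, however, 7 of the 13 were lower and 1 higher than in P10 TAµ, and 9 were lower and none higher than in transplanted µ. Their summed log2 level there was 13.69, beside 14.52 for 13 macrophage markers. Most of that macrophage sum is its highest marker, at 14.11. The median level there was 7.95 for the macrophage markers and 9.18 for the microglial ones. In the other groups the microglial sum was 14.04 to 14.61 and the macrophage sum 8.57 to 11.19. The part of this shift in the TAµ values below was not tested.

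The deposited file holds the authors' comparisons between groups and no value per library, so values below are group levels and no library is shown. A level is the group mean on the authors' log2 expression scale, solved from their average expression and fold changes. The unit behind that log2 scale is not given in the sources used here. Its standard error (SE) was worked back from the authors' p-values. It differs between groups of the same size, and neither the labels nor the file say how the authors' fit sets it. A gene is called here when its Benjamini-Hochberg adjusted p, taken over all genes by the authors' deposited table, is under 0.05. Among the 3-library groups, 26 to 70 genes share 1 fold change in a comparison and sit near -4.7, which is read here as no reads. Levels at or under -4.4 are named the floor in every group. In comparisons with P10 TAµ at most 3 genes share a fold change, so its floor rests on that cut alone. Below about 0 the size of a fold change depends on how the authors' scale treats very small counts, and it is given as deposited. Where 1 group is at the floor, levels are given and no fold.

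The matrix is a mesh of collagens, laminins, proteoglycans and glycoproteins that surrounds cells and vessels. MMPs and ADAMTS proteases cut it, ADAMs mostly cut proteins off cell surfaces, and TIMPs block these metalloproteinases. Healthy brain has little fibrillar collagen, while basement membranes of laminin, type IV collagen and nidogen ensheath its vessels, and hyaluronan with versican-family proteoglycans fills the tissue. Microglia and macrophages are known sources of TIMP2 and of several ADAM sheddases. TIMP2 inhibits MMPs and, bound to the membrane protease MMP14, helps to activate the secreted gelatinase MMP2.

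The promoters of 2 proteases on which the results below turn are shown: Adamts1, lower in both transplanted fractions than in their controls, and Mmp14, higher in transplanted TAµ. The sequences are the 250 bases before the RefSeq start, 5′ to 3′ on the gene's strand, build GRCm38.p6. They span chr16:85803114-85803363 (minus strand) for Adamts1 and chr14:54431348-54431597 (plus strand) for Mmp14. Capitals mark the core promoter element TATAAA, known as the TATA box, and the letters of the box bound by factors of the Sp family, GGGCGG, called the GC box here. Both strands were searched for each.
Adamts1: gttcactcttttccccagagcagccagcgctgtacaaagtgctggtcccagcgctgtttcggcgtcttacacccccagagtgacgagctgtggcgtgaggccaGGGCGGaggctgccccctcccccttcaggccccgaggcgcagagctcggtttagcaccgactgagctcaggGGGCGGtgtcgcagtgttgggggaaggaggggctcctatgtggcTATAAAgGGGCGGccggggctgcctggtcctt
Mmp14: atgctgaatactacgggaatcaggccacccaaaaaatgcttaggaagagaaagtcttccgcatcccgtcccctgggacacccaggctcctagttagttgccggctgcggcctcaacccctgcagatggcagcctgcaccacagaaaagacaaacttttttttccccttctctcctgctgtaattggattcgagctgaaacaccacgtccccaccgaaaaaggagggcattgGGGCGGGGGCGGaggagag
Adamts1 holds 1 TATA box and 3 GC boxes, and Mmp14 holds 2 GC boxes and no TATA box. Among 12174 promoters of genes in the table, 6.45% hold the TATA box letters and 56.5% the GC box letters. Of the 34 matrix and protease genes with a RefSeq promoter, 3 hold the former (Adamts1, Adamtsl2, Col10a1) and 22 the latter. The AP-1 letters TGANTCA (4.24% of all promoters) occur in Adam19 and Mmp12, the PU.1 letters GAGGAAGT (2.44%) in Mmp8 and Mmp12, and the cAMP response element TGACGTCA (2.55%) in none of the 34. A match is a description of letters in this window and no evidence of binding.

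Most of these genes were low in sorted myeloid cells. Of the 54, 14 were at or above the median average expression of all genes and 30 were under its first quartile. Per kilobase of exon, Timp2 had the highest level of all 54 in transplanted µ (6.89), transplanted TAµ (8.24) and P10 TAµ (6.38) on the log2 scale. In adult control µ, Adamts1 had the highest level (6.74), and Timp2 (5.54) came after Adamts1 and Adam10. Adam10, a sheddase of many surface proteins, had rank 2 in all 4 groups, at 5.63 to 6.45 per kilobase. Adamts1 had rank 4 in P10 TAµ, rank 10 in transplanted µ and rank 35 in transplanted TAµ. These ranks hold only if the authors' log2 scale was not already divided by gene length, which the sources used here do not state.

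At least 1 of the 6 comparisons between groups called 43 of the 54 genes (79.6%), against 59.5% of all genes. Those called in none were Adam3, Adam33, Adamtsl4, Col4a3bp, Col6a4, Col8a1, Lama3, Mmp11, Mmp12, Mmp24 and Mmp28. P10 TAµ had the highest level for 21 of the 54 (38.9%) and adult control µ the lowest for 22 (40.7%), beside 32.8% and 38.1% over all genes. Transplanted TAµ was highest for 14 (25.9%) and lowest for 18 (33.3%), close to the 25.7% and 31.5% of all genes. It was at the floor for 5 (Adam4, Adamts17, Adamtsl2, Col10a1, Lama3), or 9.26% against 4.49% of all genes.

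**Figure D1:**
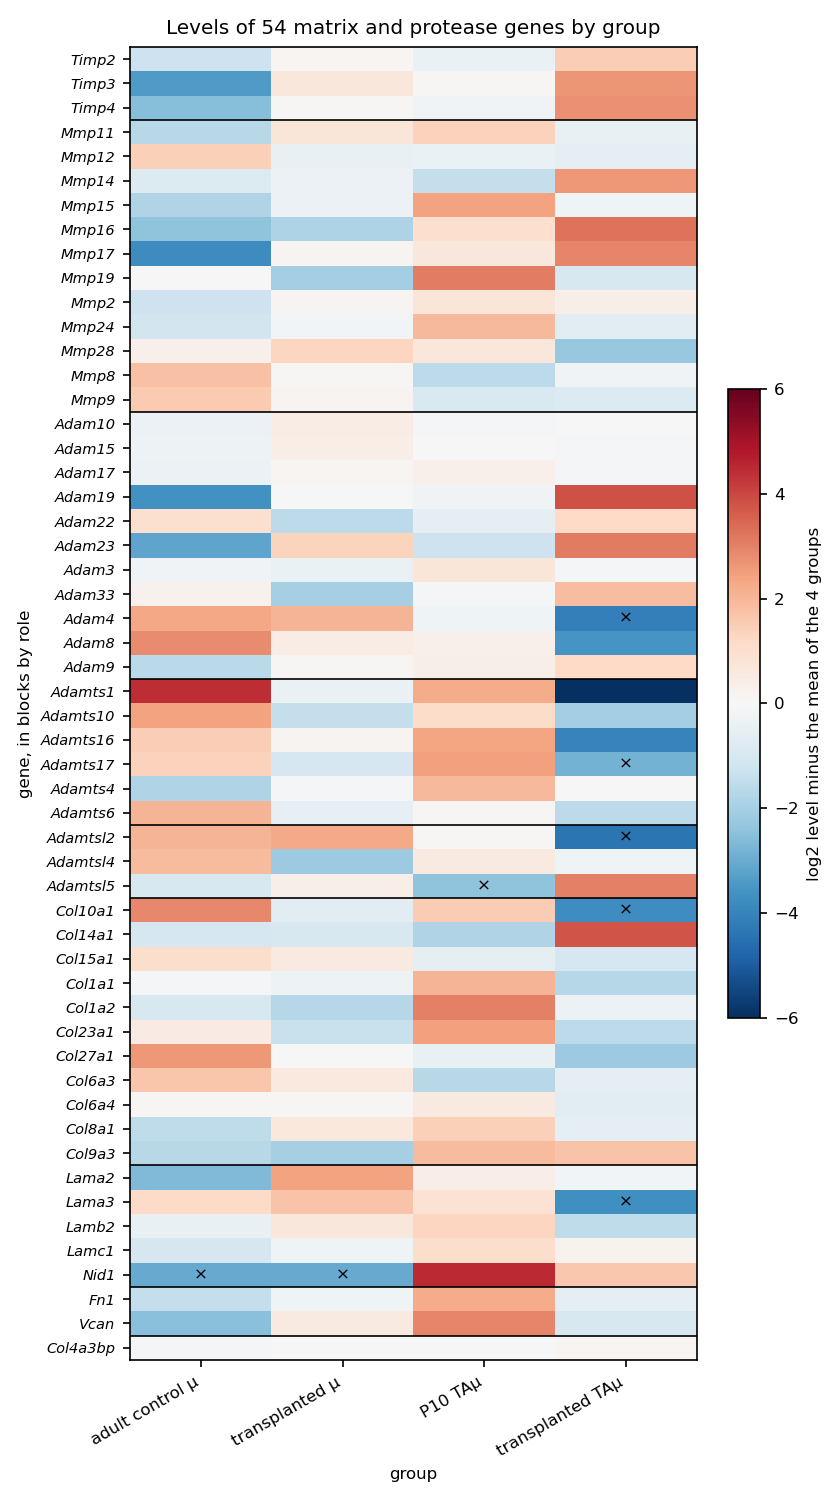
Group levels of the 54 genes in blocks by role, coloured by the log2 level minus the mean of the 4 groups, with a cross where the group is at the floor. TIMPs are highest in transplanted TAµ, Adamts1 spans from 9.14 in adult control µ to -1.54 in transplanted TAµ, and Nid1 is highest in P10 TAµ.

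Transplanted µ differed from adult control µ in 16 of the 54 genes, 9 higher and 7 lower. Over all genes 21.8% were called in this comparison (11.3% higher and 10.5% lower), against 29.6% here. Inhibitor and sheddase genes were among the higher ones, and ADAMTS proteases and collagens among the lower ones. The median log2 fold change of the 54 was 0.14, beside 0.19 over all genes. Centred on that median, 5 of the 54 were higher and 7 lower.

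Transplanted TAµ differed from P10 TAµ in 27 of the 54, 12 higher and 15 lower, beside 25.7% of all genes (10.5% higher and 15.3% lower). All 3 TIMPs, 3 of 12 MMPs, 4 of 11 ADAMs, 1 of 11 collagens and 1 of 3 ADAMTS-like genes were higher. Lower were 5 collagens, 3 of 6 ADAMTS proteases, 2 ADAMs, 1 MMP, 1 ADAMTS-like gene, 2 basement membrane genes and versican. The median was -0.83, beside -0.33 over all genes, and with centring 12 were higher and 10 lower.

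These comparisons share no group, although the sample letters of the 2 transplanted fractions match, so that they may share mice. Adam9, Adam19, Adam23, Mmp17 and Timp2 were higher in both, 5 of the 9 higher in µ and of the 12 higher in TAµ. That is 55.6% and 41.7%, beside 29.2% and 31.6% over all genes. Adamts1, Col10a1 and Col27a1 were lower in both, 3 of the 7 and of the 15 (42.9% and 20.0%, beside 30.5% and 20.9% over all genes). Adam22 was lower in transplanted µ and higher in transplanted TAµ than in the respective control. That pattern was found in 53 of the 13769 genes. None of the 54 was higher in the former and lower in the latter, as were 133 of all genes. With so few genes these shares are a description.

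**Figure D2:**
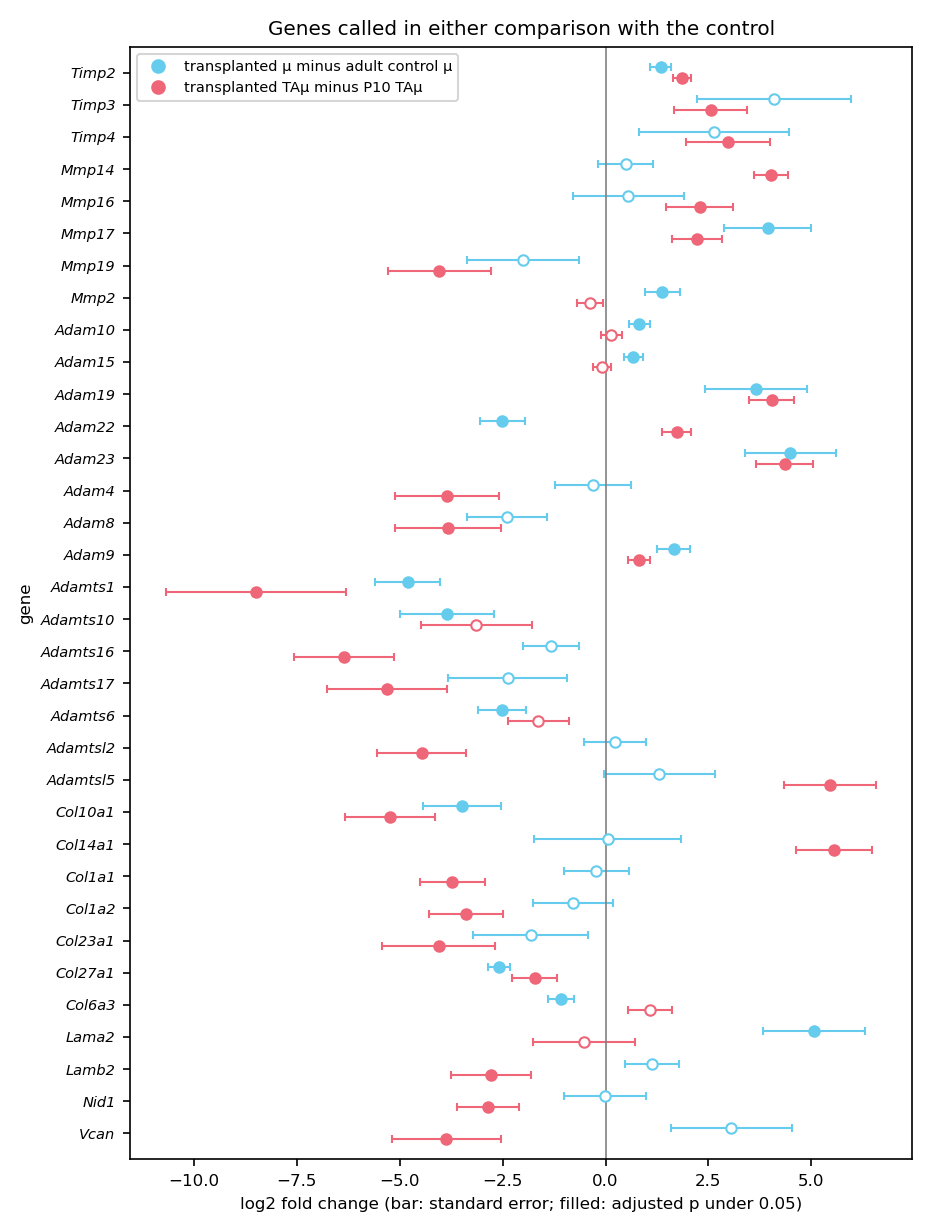
Log2 fold changes with standard errors for the genes called in transplanted µ against adult control µ (blue) or transplanted TAµ against P10 TAµ (red), filled where adjusted p was under 0.05. Timp2, Adam9, Adam19, Adam23 and Mmp17 lie right of 0 with both points filled, and Adamts1, Col10a1 and Col27a1 left of 0; points whose group is at the floor (such as Col10a1 in transplanted TAµ) show a direction, not a size.

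Timp2 lies on chromosome 11 (chr11:118301069-118355740, minus strand, mm10). Its log2 level was 7.51 ± 0.19 (SE) in adult control µ, 8.34 ± 0.10 in P10 TAµ, 8.85 ± 0.17 in transplanted µ and 10.20 ± 0.19 in transplanted TAµ. Each step in that order was called except the one between P10 TAµ and transplanted µ (0.51 ± 0.20, adjusted p = 0.0743, authors' deposited table). Its rise over the control was 2.54-fold in transplanted µ (log2 fold change 1.34 ± 0.25, adjusted p = 0.00175) by the authors' deposited table. In transplanted TAµ it was 3.64-fold (1.86 ± 0.21, adjusted p = 9.62e-06, authors' deposited table). The 2 rises were not shown to differ (difference 0.52 ± 0.33, adjusted p = 0.309). Centred on the median fold change of all genes, the step from adult control µ to P10 TAµ was not called (0.42, adjusted p = 0.135) and the one from P10 TAµ to transplanted µ was (0.80, adjusted p = 0.00638). Within the transplanted mice Timp2 was 2.56-fold higher in TAµ than in µ (adjusted p = 0.00345 in the authors' deposited table).

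Timp3, which is held in the matrix and also inhibits ADAM17 and ADAMTS proteases, and Timp4 had wide errors. Timp3 levels were -1.72 ± 1.64 in adult control µ, 1.79 ± 0.61 in P10 TAµ, 2.38 ± 0.91 in transplanted µ and 4.34 ± 0.65 in transplanted TAµ. Timp4 levels were -1.95 ± 1.41, 0.40 ± 0.70, 0.68 ± 1.15 and 3.37 ± 0.74 in the same order. Both were called higher in transplanted TAµ than in P10 TAµ (Timp3 adjusted p = 0.0427, Timp4 adjusted p = 0.039, authors' deposited table). Neither difference between transplanted µ and adult control µ was called (adjusted p = 0.123 and 0.308 in the authors' deposited table). Exons of each overlap exons of a synapsin gene on the opposite strand, Timp3 those of Syn3 and Timp4 those of Syn2. Whether counting used strand is not given in the sources used here. Syn2, a presynaptic gene, had levels of -2.71, 0.49, 2.15 and 2.62 in the same order of groups. The levels of Syn3, the synapsin at Timp3, are not given here. Neither synapsin was called in any comparison. Their part in the Timp3 and Timp4 values was not tested.

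Markers of astrocytes and neurons, cells that also make TIMPs, were read in the same groups. The summed level of 11 astrocyte markers was 8.75 in adult control µ, 8.39 in P10 TAµ, 10.85 in transplanted µ and 11.90 in transplanted TAµ on the log2 scale. Of these markers 6 were higher in transplanted µ than in its control and 8 in transplanted TAµ than in its control, with none lower. The summed level of 11 neuronal markers ran 5.40, 6.50, 7.65 and 8.40 over the same groups, with 6 and 3 higher. Between the transplanted fractions 2 astrocyte markers were higher in TAµ and no neuronal marker was called. Of 13 macrophage markers 6 were higher in transplanted µ and 11 in transplanted TAµ than in the controls, with none lower. Their sums were 8.57, 11.19, 10.97 and 14.52 in the same order of groups. The part of these cells in the TIMP, MMP and ADAM values was not tested. In RNA of a sorted population, more cells of a type and more RNA per cell cannot be told apart.

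Mmp14, the membrane-bound activator of MMP2, had the smallest adjusted p of the 12 MMPs in transplanted TAµ against P10 TAµ. Mmp14 (chr14:54431612-54445364, plus strand, mm10) stood at 6.01 ± 0.25 in transplanted TAµ. The other groups lay at 3.08 ± 0.41 (transplanted µ), 2.58 ± 0.53 (adult control µ) and 1.99 ± 0.33 (P10 TAµ). Transplanted TAµ was 16.3-fold above P10 TAµ (4.03 ± 0.42, adjusted p = 3.22e-06), 10.8-fold above adult control µ and 7.66-fold above transplanted µ (adjusted p = 0.000463 and 0.0016), all from the authors' deposited table. Transplanted µ did not pass against adult control µ (0.49 ± 0.67, adjusted p = 0.623, authors' deposited table). The fold changes of the 2 fractions differed by 3.54 ± 0.79 on the log2 scale (adjusted p = 0.00832).

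Mmp2, the secreted gelatinase that MMP14 activates, had another order. It was lowest in adult control µ (4.0 ± 0.35) and lay at 5.38 ± 0.24 in transplanted µ, 5.58 ± 0.29 in transplanted TAµ and 5.95 ± 0.12 in P10 TAµ. The latter 3 groups were not called against each other. Transplanted µ was 2.6-fold above adult control µ (1.38 ± 0.43, adjusted p = 0.029) and P10 TAµ 3.86-fold above it (1.95 ± 0.37, adjusted p = 0.000708), by the authors' deposited table. With centring the former was 1.19 (adjusted p = 0.0554).

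The membrane-anchored Mmp17 rose in both transplanted fractions and Mmp16 in transplanted TAµ. Mmp17, which is held by a lipid anchor, had levels of -3.84 ± 0.83 in adult control µ, 0.10 ± 0.66 in transplanted µ, 0.62 ± 0.37 in P10 TAµ and 2.84 ± 0.48 in transplanted TAµ. It was called in both transplant comparisons (adjusted p = 0.0144 for µ and 0.0121 for TAµ in the authors' deposited table). Mmp16 was at 2.31 ± 0.66 in transplanted TAµ, above the 0.03 ± 0.47 of P10 TAµ (adjusted p = 0.0458) and the -2.81 ± 0.94 of transplanted µ (adjusted p = 0.0125), per the authors' deposited table. Mmp19, a secreted MMP, went the other way, with 1.65 ± 0.39 in P10 TAµ and -2.39 ± 1.19 in transplanted TAµ (adjusted p = 0.0243 by the authors' deposited table).

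The MMPs that neutrophils store in granules showed no called difference between transplanted cells and controls. Mmp8 and Mmp9 were lower in P10 TAµ than adult control µ (-3.33 ± 1.23, adjusted p = 0.0425, and -2.48 ± 0.84, adjusted p = 0.0286, in the authors' deposited table). Mmp8 levels ran from -0.25 ± 0.89 in P10 TAµ to 3.07 ± 0.84 in adult control µ, and Mmp9 levels from 0.46 ± 0.59 to 2.94 ± 0.60. In the same comparison 6 of 9 neutrophil markers were lower, with summed levels of 9.71 in adult control µ and 6.68 in P10 TAµ. Their part in the Mmp8 and Mmp9 values was not tested. Mmp12, the macrophage elastase, was called in no comparison, with levels from -1.15 ± 1.48 to 0.90 ± 1.04.

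**Figure D3:**
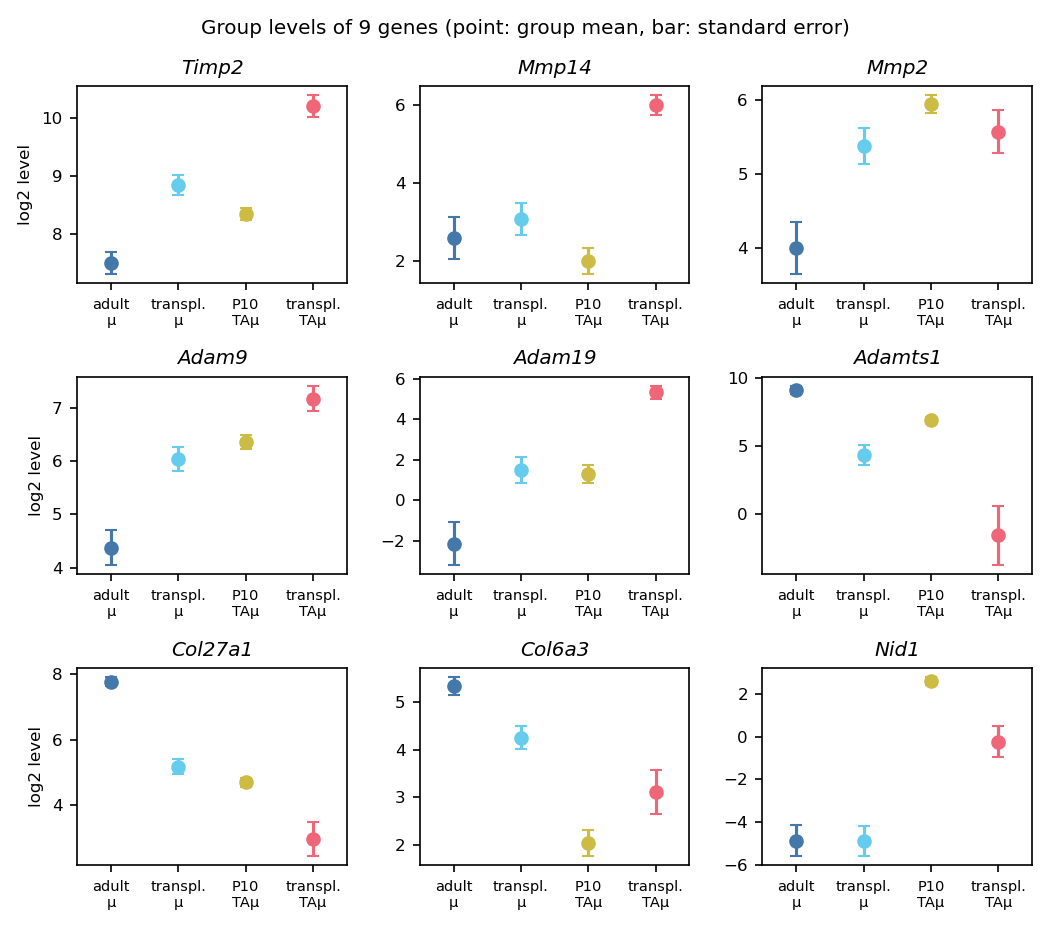
Group levels of 9 genes on the log2 scale, each point a group mean and each bar its standard error, with a separate vertical axis per gene that does not start at 0. Timp2, Mmp14, Adam9 and Adam19 peak in transplanted TAµ, Adamts1 and Col27a1 peak in adult control µ and are lowest in transplanted TAµ, and Nid1 is at the floor in both µ groups.

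The ADAMs divided into steady and variable members. The sheddases Adam10, Adam15 and Adam17 were high in every group and moved little: group levels ranged from 7.92 to 8.74 for Adam10, from 6.80 to 7.48 for Adam15 and from 7.56 to 8.18 for Adam17. Adam10 and Adam15 were higher in transplanted µ than in adult control µ (0.82 ± 0.25, adjusted p = 0.0293, and 0.68 ± 0.23, adjusted p = 0.0405, authors' deposited table). Centred on the median of all genes they were 0.63 (adjusted p = 0.0838) and 0.49 (adjusted p = 0.13). Adam17, the main sheddase of TNF, was higher in P10 TAµ than adult control µ (0.62 ± 0.14, adjusted p = 0.00309, authors' deposited table), and 0.21 with centring (adjusted p = 0.267).

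Adam9 and Adam19, sheddases with growth factors among their substrates, rose in both transplanted fractions. Adam9 was at 4.38 ± 0.33 in adult control µ, 6.04 ± 0.22 in transplanted µ, 6.36 ± 0.12 in P10 TAµ and 7.17 ± 0.24 in transplanted TAµ. The difference from the control was 1.66 ± 0.40 for µ (adjusted p = 0.00793) and 0.81 ± 0.27 for TAµ (adjusted p = 0.0346) in the authors' deposited table. Adam19 was at -2.14 ± 1.06, 1.51 ± 0.64, 1.28 ± 0.45 and 5.33 ± 0.32 in the same order of groups. Its differences were 3.65 ± 1.24 (adjusted p = 0.0426) and 4.04 ± 0.55 (adjusted p = 5.03e-05), again in the authors' deposited table. With centring the former was 3.47 (adjusted p = 0.0547). Both genes were also higher in transplanted TAµ than in transplanted µ (adjusted p = 0.0469 for Adam9 and 0.00389 for Adam19, authors' deposited table), and for both the middle pair of groups was not called apart.

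Adam22 and Adam23 lack protease activity and serve at synapses as receptors of LGI1. Adam22 levels were 3.85 ± 0.24 in adult control µ, 1.34 ± 0.49 in transplanted µ, 2.35 ± 0.21 in P10 TAµ and 4.08 ± 0.28 in transplanted TAµ. Against its control it fell in transplanted µ (-2.51 ± 0.55, adjusted p = 0.0046) and rose in transplanted TAµ (1.73 ± 0.35, adjusted p = 0.00182), per the authors' deposited table. Adam23 levels were -2.95 ± 0.94, 1.54 ± 0.58, -1.02 ± 0.50 and 3.33 ± 0.46 in that order, higher in both transplanted fractions (adjusted p = 0.00929 and 0.000203 in the authors' deposited table). Adam8, an ADAM of leukocytes, fell from 0.03 ± 0.48 in P10 TAµ to -3.80 ± 1.19 in transplanted TAµ (adjusted p = 0.0357 in the authors' deposited table). With centring the difference was -3.51 (adjusted p = 0.0519).

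Of 6 ADAMTS proteases 3 were lower in transplanted µ and 3 in transplanted TAµ than in the respective control, and the others were not called. Over all genes 10.5% were lower in the µ comparison and 15.3% in the TAµ comparison. Adamts1, which cuts aggrecan and versican, changed most (chr16:85793827-85803113, minus strand, mm10). Its log2 level was 9.14 ± 0.28 in adult control µ, 6.97 ± 0.21 in P10 TAµ, 4.34 ± 0.74 in transplanted µ and -1.54 ± 2.18 in transplanted TAµ. Transplanted µ was 28.0-fold below adult control µ (-4.81 ± 0.79, adjusted p = 0.000724), and P10 TAµ was 4.53-fold below it (-2.18 ± 0.35, adjusted p = 0.000167), in the authors' deposited table. Transplanted TAµ was below P10 TAµ by a deposited -8.50 ± 2.19 (adjusted p = 0.00857, authors' deposited table), with a size that the wide error leaves uncertain. The 2 transplanted fractions were not called apart (-5.87 ± 2.3, adjusted p = 0.136 in the authors' deposited table).

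Immediate early genes, the quick transcriptional responders to a stimulus, were ordered like Adamts1. Of 20 such genes, 18 were lower in transplanted µ than in adult control µ and 13 lower in transplanted TAµ than in P10 TAµ, with none higher. Their summed log2 level was 14.12 in adult control µ, 13.21 in P10 TAµ, 10.86 in transplanted µ and 10.37 in transplanted TAµ. Their part in the Adamts1 values was not tested.

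Adamts6 and Adamts10 were lower in transplanted µ than in adult control µ (-2.51 ± 0.58, adjusted p = 0.00662, and -3.84 ± 1.14, adjusted p = 0.024, authors' deposited table). Both had negative, uncalled differences in transplanted TAµ (-1.64 and -3.14; adjusted p = 0.112 and 0.094 in the authors' deposited table). Adamts10, which acts at fibrillin microfibrils, had levels of 3.03 ± 0.56 in adult control µ and -0.81 ± 1.0 in transplanted µ. Adamts16 was at 5.25 ± 0.15 in P10 TAµ and -1.10 ± 1.20 in transplanted TAµ (-6.35 ± 1.21, adjusted p = 0.00107 in the authors' deposited table). Adamts17 was at 0.68 ± 0.52 in P10 TAµ and at the floor in transplanted TAµ (adjusted p = 0.0131 in the authors' deposited table). Adamts16 alone of the 6 differed between the fractions in the test of the difference (-5.02 ± 1.39, adjusted p = 0.0252). Adamts4, another aggrecanase, was higher in P10 TAµ than adult control µ (adjusted p = 0.039 in the authors' deposited table) and was not called in either transplant comparison. With centring the former difference was 3.36 (adjusted p = 0.0653). The ADAMTS-like proteins have no protease domain. Adamtsl2 was at -0.11 ± 0.41 in P10 TAµ and at the floor in transplanted TAµ (adjusted p = 0.00592), while Adamtsl5 was at the floor in P10 TAµ and at 0.58 ± 0.95 in transplanted TAµ (adjusted p = 0.00197), by the authors' deposited table.

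Of 11 collagens 3 were lower and none higher in transplanted µ than in its control, and 5 were lower and 1 higher in transplanted TAµ. Over all genes 10.5% were lower and 11.3% higher in the µ comparison, and 15.3% lower and 10.5% higher in the TAµ comparison. Col27a1, a fibrillar collagen, was at 7.77 ± 0.14 in adult control µ, 5.18 ± 0.22 in transplanted µ, 4.70 ± 0.13 in P10 TAµ and 2.97 ± 0.53 in transplanted TAµ. It was 6.04-fold below the control in transplanted µ (-2.59 ± 0.26, adjusted p = 1.74e-05) and 8.42-fold lower in P10 TAµ than adult control µ (adjusted p = 2e-08), by the authors' deposited table. In transplanted TAµ it fell by 1.72 ± 0.54 against P10 TAµ (adjusted p = 0.0268 in the authors' deposited table), and by 1.40 with centring (adjusted p = 0.066).

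Col6a3, a chain of the beaded filaments of type VI collagen, was at 5.35 ± 0.19 in adult control µ, 4.26 ± 0.25 in transplanted µ, 3.11 ± 0.46 in transplanted TAµ and 2.04 ± 0.27 in P10 TAµ. It was lower in transplanted µ than in its control (-1.09 ± 0.31, adjusted p = 0.0212), and 9.93-fold lower in P10 TAµ than adult control µ (adjusted p = 1.64e-06), in the authors' deposited table. Transplanted TAµ and P10 TAµ were not called apart for Col6a3. Col15a1, of the basement membrane zone, ran from 5.29 ± 0.24 in adult control µ to 3.21 ± 0.55 in transplanted TAµ and was called in neither transplant comparison.

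The type I collagen genes Col1a1 and Col1a2 were highest in P10 TAµ, at 0.98 ± 0.27 and 0.49 ± 0.33, and lay between -1.12 and -4.26 elsewhere. Both were lower in transplanted TAµ than in P10 TAµ (adjusted p = 0.00233 and 0.01) and higher in P10 TAµ than adult control µ (adjusted p = 0.0142 and 0.000764), by the authors' deposited table. Col10a1, known from growth plate cartilage, was at 2.04 ± 0.55 in adult control µ and -1.46 ± 0.77 in transplanted µ, and at 0.67 ± 0.39 in P10 TAµ and the floor in transplanted TAµ. Both differences were called (adjusted p = 0.0148 and 0.00214 in the authors' deposited table), and exons of Col10a1 overlap those of Nt5dc1 on the opposite strand. Col14a1, which binds to the surface of collagen fibrils, was the 1 collagen that rose, to 4.74 ± 0.48 in transplanted TAµ from -0.81 ± 0.80 in P10 TAµ (adjusted p = 0.000352 in the authors' deposited table). It was also above transplanted µ (-0.00 ± 1.26, adjusted p = 0.0437 in the authors' deposited table).

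Nid1, the nidogen that ties laminin to type IV collagen, was at 2.61 ± 0.19 in P10 TAµ, at -0.24 ± 0.73 in transplanted TAµ and at the floor in transplanted µ and adult control µ. All pairs except the 2 µ groups were called, with adjusted p from 1.33e-06 (P10 TAµ against adult control µ) to 0.0113 (transplanted TAµ against transplanted µ) in the authors' deposited table. Nid1 was thus above the floor in both TAµ groups and in neither µ group.

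The laminin chains Lama2, Lamb2 and Lamc1 were higher in P10 TAµ than adult control µ (adjusted p = 0.0452, 0.0301 and 0.000515 in the authors' deposited table). With centring Lama2 was at 2.62 (adjusted p = 0.0834) and Lamb2 at 1.30 (adjusted p = 0.0948), and Lamc1 stayed called. Lamc1, the chain most laminins share, was at 4.96 ± 0.11 in P10 TAµ and 2.93 ± 0.36 in adult control µ, 4.09-fold apart. Transplanted µ and TAµ lay between, at 3.67 ± 0.26 and 4.13 ± 0.30. Lamb2 was lower in transplanted TAµ than in P10 TAµ (2.43 ± 0.96 against 5.22 ± 0.18, adjusted p = 0.0441), and Lama2 was higher in transplanted µ than in adult control µ (1.16 ± 0.72 against -3.90 ± 1.01, adjusted p = 0.00866), in the authors' deposited table. With centring the Lamb2 difference was -2.45 (adjusted p = 0.0721).

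Fibronectin and versican, ligands of integrins and CD44 in the interstitial matrix, were highest in P10 TAµ. Fn1 was at 2.12 ± 0.37 there and between -1.55 and -0.39 in the other groups, and Vcan was at 2.39 ± 0.35 there and between -3.03 and 0.03 in the others. Both were higher in P10 TAµ than adult control µ (adjusted p = 0.0149 for Fn1 and 0.00195 for Vcan), and Vcan was lower in transplanted TAµ than in P10 TAµ (adjusted p = 0.0395), by the authors' deposited table. With centring the latter was -3.55 (adjusted p = 0.0567).

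Between the controls, P10 TAµ and adult control µ, 30 of the 54 genes were called, 19 higher and 11 lower at P10, beside 35.7% of all genes (23.2% and 12.5%). The median over all genes was 0.41 there, and with centring 13 were higher and 12 lower. Between the transplanted fractions 11 were called, 8 higher and 3 lower in TAµ, beside 6.49% of all genes (3.56% and 2.93%). The 24 called in transplanted TAµ against adult control µ (13 higher, 11 lower) stand beside 30.1% of all genes (16.7% and 13.4%), and the 14 in transplanted µ against P10 TAµ (4 higher, 10 lower) beside 20.3% (7.63% and 12.6%). The latter became 9 higher and 10 lower with centring. Those last 2 comparisons set a transplanted fraction against the control of the other fraction and share groups with those above.

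The difference from the control was itself unlike between the fractions for 11 of the 54, 3 more positive and 8 more negative in TAµ, beside 13.4% of all genes (3.78% and 9.61%). Since the TAµ control is at P10 and the µ control adult, age and treatment cannot be told apart in this test.

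**Figure D4:**
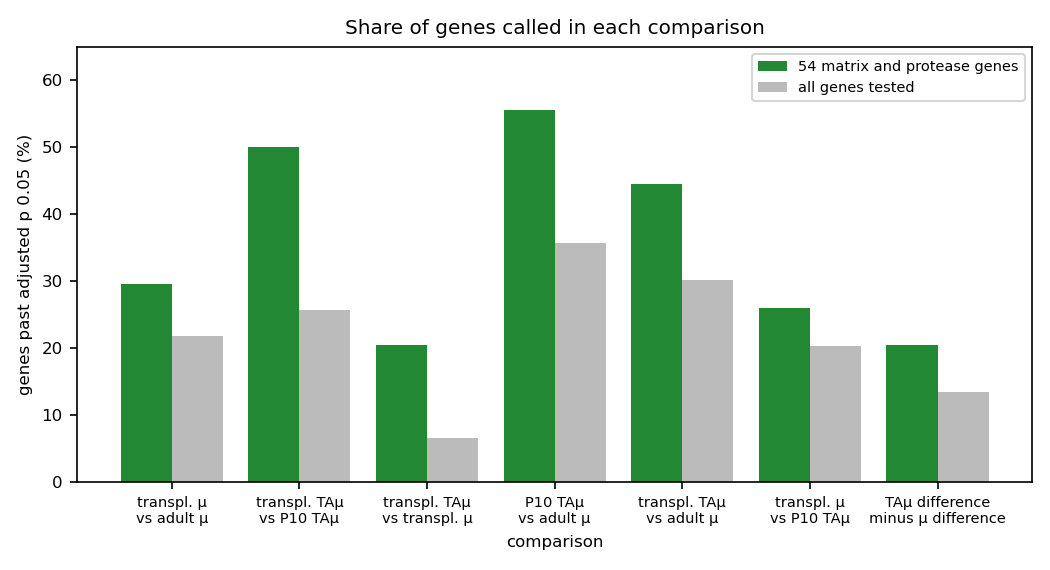
Percent of the 54 genes (green) and of all genes tested (grey) past an adjusted p of 0.05 in the 6 comparisons and in the test between the TAµ and the µ difference from the control; no error is defined for a share of one table. The green bars lie between 20.4% and 55.6% and the grey bars between 6.49% and 35.7%.

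Cells of vessels and meninges are the main makers of collagens, laminins and fibronectin in brain, and few of their markers were measured. Of 13 endothelial markers 6 were measured, with summed levels of 4.38 in adult control µ, 5.03 in P10 TAµ, 4.14 in transplanted µ and 2.91 in transplanted TAµ; 2 were lower in transplanted TAµ than in P10 TAµ. Of 11 pericyte and smooth muscle markers 6 were measured, with sums of 3.85, 3.79, 4.34 and 5.09 in the same order. The sum in transplanted TAµ is mostly Abcc9 (5.00), which was higher in both transplanted fractions than in their controls. Acta2 was lower in both, Pdgfrb was lower in transplanted TAµ, and the other 3 were called in neither comparison. Pdgfrb, a defining pericyte marker, was at 2.50 in P10 TAµ, at the floor in adult control µ and at -3.43 and -3.26 in the transplanted fractions. Of 11 fibroblast and meningeal markers 3 were measured, with sums of 0.00, 3.19, 2.87 and 5.49, and 2 of the 3 were higher in transplanted TAµ than in P10 TAµ. All 3 were higher in transplanted TAµ than adult control µ, and their levels in transplanted TAµ ran from 3.17 to 4.42. All 12 markers of oligodendrocytes and their precursors were measured, with sums of 7.54, 7.38, 9.81 and 10.71 in the same order of groups. In P10 TAµ 6 of them were higher than in adult control µ and none lower. Against P10 TAµ, 3 were higher in transplanted TAµ and 1, Cspg4, was lower. Against adult control µ, 3 were higher in transplanted µ and none lower. The part of all these cell types in the collagen, laminin, Nid1, Fn1 and Vcan values was not tested.

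Further genes of the matrix, from lists of basement membrane, elastic fibre, proteoglycan, matricellular, collagen-processing and protease-inhibitor genes, were measured for 78 of 143. In transplanted µ against adult control µ 11 of the 78 were higher and 4 lower (19.2% called, beside 21.8% of all genes), and in transplanted TAµ against P10 TAµ 11 were higher and 23 lower (43.6%, beside 25.7%). The latter include 9 of 20 collagen-processing genes, with 1 higher. Among them P4hb, a subunit of the enzyme that hydroxylates collagen prolines, was lower in transplanted TAµ (-1.0 ± 0.18, adjusted p = 0.000762) but higher in transplanted µ (0.66 ± 0.19, adjusted p = 0.0222), in the authors' deposited table. Sparc, a collagen-binding matricellular protein made by microglia, moved the same way, up in transplanted µ (1.52 ± 0.31, adjusted p = 0.00275) and down in transplanted TAµ (-1.46 ± 0.31, adjusted p = 0.00216), by the authors' deposited table. Serpine2, an inhibitor of thrombin and plasminogen activators, did so too (1.21 ± 0.19, adjusted p = 0.000532, and -0.82 ± 0.19, adjusted p = 0.00365, authors' deposited table). Tgfbi, a matrix adhesion protein, was higher in both, by 1.58 ± 0.34 in µ (adjusted p = 0.00444) and 2.37 ± 0.23 in TAµ (adjusted p = 1.79e-06) in the authors' deposited table.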

How the data were processed

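Per the labels' protocols, RNA (100 ng a sample) went through Ovation RNA-Seq System V2 amplification and single-end sequencing of 50 cycles. Per the submitters' processing notes, the tools were STAR 2.3.0, HTSeq 0.5.3 and limma on build mm10. Normalization, gene filter, annotation and counting strand are not stated in the labels or the file, and depth per library is unknown. Per the file headers, the authors deposited log2 average expression and log2 fold changes. The p-values, raw and Benjamini-Hochberg adjusted, are the authors' own from limma. Score columns were deposited, the authors' moderated F and their call of 1, 0 or -1, and the calls equal adjusted p under 0.05 throughout.

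From these, standard errors were solved with 18 degrees of freedom, the value that fits the authors' F and its p. Where p was under 1e-05, adjusted p times rank was used instead, and the smallest values came from variances that add over groups. Group levels were solved with groups weighted by library number. The difference between the TAµ and the µ comparison with the control was tested on 13760 genes with these errors and Benjamini-Hochberg adjustment. Coding was checked on 26 proliferation genes, of which 25 were called higher in P10 TAµ, none lower. The steps were tested on simulated data with the same variance in all groups for a gene and no floor. That test does not cover errors that differ between groups of the same size, as they do here. Exon lengths (exon union) and overlaps are from GENCODE M21 (54 of 54 matched), and promoters from RefSeq. Genes were named by a rule of up to 15 called per direction and comparison. The genes and lists were chosen with earlier results of these data known. Whether libraries came from separate mice is stated only as triplicates in the design text, while 8 P10 libraries are listed, so p-values measure the spread between these libraries, which may be partly technical. Python 3.11.15, pandas 2.3.3, numpy 2.4.6, scipy 1.17.1 and matplotlib 3.10.9 were used.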

Additional observations from a re-analysis of the deposited data

Results flagged for a closer look

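The log2 difference of transplanted cells from their control differed between the TAµ and the µ fraction for 11 of the 54 genes, 3 more positive and 8 more negative in TAµ, beside 13.4% of all genes (3.78% and 9.61%). With fold changes centred on the median of all genes the split was 3 and 3. The TAµ control is at P10 while the µ control is adult, so age and treatment cannot be told apart here, and the 2 transplanted fractions may share mice. Values are differences of log2 fold changes with SE and adjusted p over 13760 genes.

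Adam22 differed by 4.24 ± 0.65 (adjusted p = 0.000755), with 1.73 in TAµ and -2.51 in µ. Mmp14 differed by 3.54 ± 0.79 (adjusted p = 0.00832), with 4.03 in TAµ and 0.49 in µ. Col6a3 differed by 2.17 ± 0.62 (adjusted p = 0.0283), with 1.08 in TAµ and -1.09 in µ. These were the 3 genes with the more positive difference in TAµ.

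Among the proteases, Adamts16 differed by -5.02 ± 1.39 (adjusted p = 0.0252), Mmp2 by -1.75 ± 0.53 (adjusted p = 0.0369) and Adam17 by -0.85 ± 0.24 (adjusted p = 0.0282). Adamtsl2, at the floor in transplanted TAµ, differed by -4.69 ± 1.32 (adjusted p = 0.0271), a size that depends on how the authors' scale treats very small counts. Among structural genes, Vcan differed by -6.93 ± 1.98 (adjusted p = 0.0284), with -3.87 in TAµ and 3.06 in µ. Lama2 differed by -5.59 ± 1.75 (adjusted p = 0.0422), Lamb2 by -3.91 ± 1.18 (adjusted p = 0.0363) and Col1a1 by -3.50 ± 1.12 (adjusted p = 0.0458). In adult control µ Vcan was at -3.03 and Lama2 at -3.90, and in transplanted TAµ Col1a1 was at -2.74 and Adamts16 at -1.10. With such levels under 0, the sizes for Vcan, Lama2, Col1a1 and Adamts16 also depend on how the scale treats very small counts. Adam17, Col1a1, Lama2, Lamb2 and Mmp2 were no longer called with centring, at -0.34, -2.99, -5.08, -3.40 and -1.25 (adjusted p = 0.379, 0.0876, 0.0648, 0.0677 and 0.134).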

How the results depend on the processing

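In the order transplanted µ against adult control µ, transplanted TAµ against P10 TAµ, TAµ against µ among transplanted cells, P10 TAµ against adult control µ, transplanted TAµ against adult control µ, transplanted µ against P10 TAµ, and the difference between the first 2 comparisons, the genes called numbered 16, 27, 11, 30, 24, 14 and 11. An adjusted p threshold of 0.01 left 8, 13, 5, 16, 17, 5 and 2, and Bonferroni adjustment left 1, 3, 0, 3, 5, 1 and 0. For transplanted TAµ against transplanted µ, the 0 under Bonferroni stands beside 11 at the adjusted p of 0.05 of limma. Keeping only genes at or above the first quartile of expression left 12, 10, 6, 14, 13, 5 and 7, since low members were no longer tested. The median of expression, chosen after seeing the data, left 8, 6, 3, 10, 8, 5 and 5, for the same reason. Centring on the median fold change gave 12, 22, 12, 25, 24, 19 and 6. Leaving out members at the floor, also chosen after seeing the data, gave 16, 22, 8, 29, 20, 13 and 10. A minimum fold and 1 entry per symbol kept each count within 1.5 times, and no result reversed its direction in any alternative run. Weighting the 4 groups equally moved the median level of the 54 genes over groups from 0.82 to 1.14. No paired analysis was possible because the deposited comparisons hold no values per library. For the same reason leaving out single replicates, another normalization and another test were not run. Depth per library is unknown, and no fold could be given where a group is at the floor, as for 5 genes in transplanted TAµ.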
